A study of Drosophila melanogaster with 9 samples.

Results

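10 genes of the siRNA and microRNA machinery of Drosophila melanogaster are described here across fly thoraces that expressed different short hairpin RNAs. They are AGO1, AGO2, Dcr-1, Dcr-2, r2d2, loqs, pasha, drosha, Hen1 and blanks, chosen by name for their part in processing hairpins and microRNAs. All 10 stand in both deposited tables, among 13759 features that the tables share. The 9 libraries came from pooled thoraces of female flies on adult day 20 in the W1118 (BL5905) background. Every fly, controls included, expressed a hairpin under Act5C>shRNA, which drives ubiquitous expression. The 412KD group carried a hairpin against the retrotransposon 412 and the RooKD group a hairpin against the retrotransposon roo. The scramble group carried a control hairpin, so no group was free of hairpin expression. Each group held 3 paired-end RNA-seq libraries, and nothing in the labels ties the pools to separate cultures. The p-values therefore measure the spread between pools, which may be technical in part. That spread was above counting noise (chi-square over degrees of freedom 20.9 to 164 between replicates of a group).

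In flies, microRNA precursors are cut in the nucleus by Drosha with its partner Pasha, and in the cytoplasm by Dicer-1 with an isoform of Loquacious. The resulting microRNAs are loaded mainly into AGO1. Long double-stranded RNA and long hairpin transcripts are cut by Dicer-2, and the siRNAs are loaded with the help of R2D2 into AGO2, which can slice its targets. Hen1 methylates the ends of siRNAs in AGO2 and of piRNAs, and Blanks is a double-stranded RNA-binding protein known from the male germline. The data are messenger RNA levels, and neither small RNAs nor proteins were measured.

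Library totals ranged from 17590599 to 26177587 reads. 3 libraries held more ovary transcripts than the others. The summed level of 14 ovary markers was 953 CPM (counts per 1000000 reads) in 412KD replicate 3 and 599 CPM in RooKD replicate 1, against 72.6 to 203 CPM in the other 7 libraries. None of the 14 markers was at 0 reads in those 2 libraries, which are called the libraries with ovary transcripts below. The marker grk was at a like level in all libraries, and the 13 others summed to 882 and 533 CPM in these 2 libraries, 135 CPM in 412KD replicate 1 and 7.89 to 13 CPM in the other 6. 412KD replicate 1, with 578 reads of the oocyte gene yl, thus also held ovary transcripts, at a lower summed level. It stays in the values given without the 2 libraries. Taken singly, the markers differed between these 3 libraries. Vm26Aa and Vm26Ab had 541 and 439 reads in 412KD replicate 1, 336 and 211 in RooKD replicate 1, and 5 and 9 in 412KD replicate 3. Cp36 had 0 reads in 412KD replicate 1, 724 in RooKD replicate 1 and 6798 in 412KD replicate 3. The counted reads of the targeted elements did not stand lower in the libraries labelled as their knockdown. The counting rule for reads that match several places was not stated, so these counts cannot tell how far either element was reduced. 412 had 0.524 to 0.903 CPM in those labelled 412KD against 0.485 to 0.743 in scramble, on 10 to 23 reads a library. roo had 9.16 to 14.1 CPM in those labelled RooKD against 8.16 to 12 in scramble. In the libraries labelled RooKD, 412 had 0.356 to 0.454 CPM on 7 to 10 reads, below all libraries of both other groups. Group names below stand for these labels, and every direction is one between libraries so labelled. Results that rest on the libraries with ovary transcripts are given with and without them. The labelled thorax was checked with 9 flight muscle genes, all of which had reads in every library, with a summed level of 7713 to 10838 CPM. Summed tissue markers also differed between groups. Muscle markers were apart in 412KD, at 10018 to 10838 CPM against 7713 to 9704 in scramble. The 5 midgut markers were also apart there, at 5508 to 9642 against 3022 to 4232 CPM. Taken singly, the muscle genes wupA, Mlc2, bt and sls were apart in 412KD, while Act88F, fln, up, Mhc and TpnC4 overlapped scramble. Each midgut marker was apart in 412KD, and Jon99Ci and Jon25Bii were above scramble in RooKD as well. The 6 fat body markers, at 80545 to 90349 CPM in RooKD against 40651 to 68486 in scramble, were apart in RooKD. Taken singly, Yp2 and Yp3 were apart there, while Yp1, apolpp, Fbp1 and Lsp2 overlapped scramble. The part of these tissues in the values of the 10 genes was not tested. Fewer cells of a type and less RNA per cell cannot be told apart in such bulk samples.

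No gene of the machinery passed the test in any comparison. With edgeR's quasi-likelihood test and Benjamini-Hochberg adjustment over all features, 0 of 9 testable genes passed in 412KD against scramble, where 0.0192% of all features passed. The counts were 0 of 9 in RooKD against scramble, with 0.107% of all features, and 0 of 9 in 412KD against RooKD, with 0.0943%. DESeq2 also called 0 of them in each comparison, while it called 2.97%, 3.41% and 0.774% of all features. At an unadjusted edgeR p under 0.05, AGO1 and drosha stood apart in 412KD against scramble (2 of 9, against 11.2% of all features). The same threshold gave loqs in RooKD against scramble (1 of 9, against 12.7%) and 0 of 9 genes in 412KD against RooKD, against 6.02%. The tenth gene, blanks, did not pass the filter on low counts in any comparison. In the authors' deposited table, 0 of 10 genes passed for either hairpin, and the lowest adjusted p was 0.257 for 412KD and 0.172 for RooKD.

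The levels of the genes spanned a wide range. Per length, in deposited FPKM (fragments scaled by gene length and library total), AGO2 was the highest in scramble with 113 ± 11 (SD, n = 3), at percentile 95.2 of all features. AGO1 followed with 22.9 ± 1.18 FPKM, so that AGO2 was 4.93 times as high. In reads the ratio of AGO2 to AGO1 was 2.27 to 2.76 in the scramble libraries. The lengths used, 8278 bases for AGO1 and 4144 for AGO2, are those of all exons of a gene together. Levels compared between genes rest on such lengths. Next came loqs with 16.8 ± 1.33 and Dcr-2 with 14.1 ± 0.772 FPKM. The levels of drosha, 10.4 ± 1.38, and r2d2, 9.31 ± 1.07 FPKM, overlapped between libraries and did not differ beyond their spread. Every other pair of neighbours was separated in all 3 scramble libraries. Dcr-1 stood at 6.72 ± 0.649 FPKM, pasha at 3.98 ± 0.506 and Hen1 at 2.48 ± 0.194. The lowest was blanks with 0.449 ± 0.357 FPKM, at percentile 25.8. The order of the means was nearly the same in all groups, except that r2d2 stood above drosha in 412KD and RooKD, and Dcr-2 above loqs in RooKD.

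**Figure D1:**
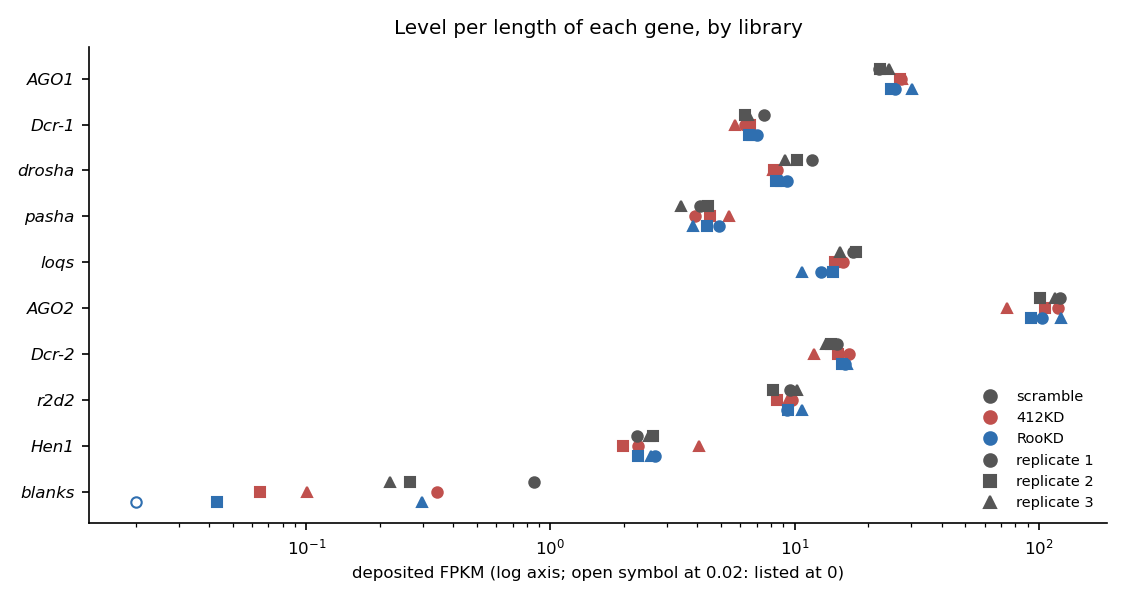
Level of each gene in FPKM (log axis) in the 9 libraries, one row for each gene with the microRNA genes on top, with one colour for each group and one marker shape for each replicate. AGO2 stands at 74.0 to 123 FPKM in every library, above AGO1 at 22.2 to 30.2, and blanks is the lowest gene, listed at 0 in 1 RooKD library (open symbol).

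The microRNA Argonaute AGO1 (FBgn0262739, 2R:13943387-13958089, minus strand) had 218, 214 and 216 CPM in the 412KD replicates 1 to 3. It had 207, 193 and 236 CPM in RooKD and 179, 177 and 191 CPM in scramble. All libraries of both hairpin groups stood above all scramble libraries, in RooKD by only a narrow margin. The log2 fold change was 0.24 ± 0.09 (SE) in 412KD against scramble, a fold of 1.18 with a 95% interval of 1.03 to 1.37 (edgeR adjusted p = 0.387). In RooKD against scramble it was 0.23 ± 0.12 (edgeR adjusted p = 0.469). Without RooKD replicate 3, the library at 236 CPM, it was 0.14. The summed tissue markers apart from scramble were those of muscle and midgut in 412KD and of fat body in RooKD. Their part was not tested.

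Dcr-1, the Dicer of microRNA precursors (FBgn0039016, 3R:22734007-22741091, minus strand), had 41.6, 43.3 and 37.3 CPM in 412KD. The levels were 47.0, 42.3 and 44.2 CPM in RooKD and 50.3, 41.6 and 42.3 CPM in scramble, so all 3 groups overlapped. Its log2 fold change was -0.13 ± 0.12 in 412KD and 0.00 ± 0.12 in RooKD, both against scramble (edgeR adjusted p = 0.694 and 0.992). The first value was -0.077 without 412KD replicate 3 and -0.045 without scramble replicate 1. The second was -0.036 without RooKD replicate 1.

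The nuclear nuclease gene drosha (FBgn0026722, 2R:7932429-7936840, plus strand) had 35.0, 33.7 and 33.1 CPM in 412KD, 38.8, 33.6 and 35.8 CPM in RooKD and 49.6, 42.3 and 37.1 CPM in scramble. Every 412KD library was below every scramble library, while 1 RooKD library reached into the scramble range. The log2 fold change was -0.34 ± 0.13 in 412KD against scramble, a fold of 0.79 with a 95% interval of 0.641 to 0.974 (edgeR adjusted p = 0.402). In RooKD against scramble it was -0.24 ± 0.13 (edgeR adjusted p = 0.487). The 412KD libraries, in which drosha did not overlap scramble, were also those with higher sums of muscle and midgut markers.

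Its partner gene pasha (FBgn0039861, 3R:31617977-31622217, plus strand) had 12, 13.9 and 16.4 CPM in 412KD, 15.4, 13.1 and 11.7 CPM in RooKD and 12.9, 13.6 and 10.5 CPM in scramble. The groups overlapped, and the highest library of each hairpin group was the one with ovary transcripts. Against scramble the log2 fold change was 0.20 ± 0.16 in 412KD and 0.13 ± 0.16 in RooKD (edgeR adjusted p = 0.684 and 0.772). Without these libraries the values were 0.075 and 0.023.

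loqs encodes isoforms that partner with either Dicer (FBgn0032515, 2L:13382652-13385671, plus strand). Its levels were 34.9, 32.1 and 32.4 CPM in 412KD, 28.5, 30.7 and 23.1 CPM in RooKD and 38.8, 39.4 and 33.4 CPM in scramble. All RooKD libraries were below all libraries of both other groups, and 412KD overlapped scramble. The log2 fold change was -0.43 ± 0.14 in RooKD against scramble, a fold of 0.743 with a 95% interval of 0.593 to 0.932 (edgeR adjusted p = 0.274). It was -0.16 ± 0.11 in 412KD against scramble (edgeR adjusted p = 0.596) and 0.27 ± 0.13 in 412KD against RooKD (edgeR adjusted p = 0.878). The other 8 testable genes had log2 fold changes of -0.13 to 0.15 in 412KD against RooKD, with edgeR adjusted p of 0.995 to 0.997. The RooKD libraries were also those with a higher sum of fat body markers. Of the exon bases of loqs, 18.3% are shared with asRNA:CR44599 on the other strand, which had 0 to 2 reads in a library.

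AGO2, the slicing Argonaute (FBgn0087035, 3L:15554113-15561042, plus strand), had 479, 421 and 291 CPM in 412KD. The levels were 415, 362 and 482 CPM in RooKD and 495, 402 and 455 CPM in scramble. The groups overlapped, and the lowest of the 9 libraries was 412KD replicate 3, one of the libraries with ovary transcripts. The log2 fold change was -0.18 ± 0.19 in 412KD against scramble, a fold of 0.881 with a 95% interval of 0.64 to 1.21 (edgeR adjusted p = 0.749). Without that library it was -0.004. In RooKD against scramble it was -0.09 ± 0.15 (edgeR adjusted p = 0.834).

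Dcr-2, the Dicer of long double-stranded RNA (FBgn0034246, 2R:17574979-17581525, minus strand), had 91.3, 81.8 and 64.4 CPM in 412KD, 88.9, 83.3 and 88.0 CPM in RooKD and 82.7, 77.2 and 72.2 CPM in scramble. RooKD lay just above scramble in all libraries, and 412KD spanned the scramble range with its lowest value again in replicate 3. On the log2 scale the difference was 0.18 ± 0.10 in RooKD against scramble (edgeR adjusted p = 0.503). These RooKD libraries also had the higher sum of fat body markers. The log2 fold change was 0.03 ± 0.14 in 412KD against scramble (edgeR adjusted p = 0.945), and 0.16 without 412KD replicate 3.

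The loading partner r2d2 (FBgn0031951, 2L:7800147-7802098, plus strand) had 17.8, 15.2 and 16.7 CPM in 412KD, 17.1, 16.6 and 19.0 CPM in RooKD and 17.6, 14.7 and 18.2 CPM in scramble. The 3 groups overlapped. Its log2 fold change against scramble was -0.03 ± 0.13 in 412KD and 0.07 ± 0.14 in RooKD (edgeR adjusted p = 0.954 and 0.866). The gene shares 22.9% of its exon bases with cdc14 on the other strand, which had 56.4 to 78.9 CPM, and the sources used here do not give the use of strand in counting.

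The methyltransferase gene Hen1 (FBgn0033686, 2R:12145710-12152752, plus strand) had 3.46, 2.98 and 6.06 CPM in 412KD, 4.09, 3.36 and 3.85 CPM in RooKD and 3.47, 3.99 and 3.79 CPM in scramble. The highest of the 9 libraries was 412KD replicate 3, which also had the highest sum of ovary markers. The second highest, RooKD replicate 1 at 4.09 CPM, was close to scramble replicate 2 at 3.99 CPM. 412KD replicate 1, which also held ovary transcripts, was at 3.46 CPM and not above any scramble library. The log2 fold change in 412KD against scramble was 0.15 ± 0.30, a fold of 1.11 with a 95% interval of 0.684 to 1.81 (edgeR adjusted p = 0.866). Without 412KD replicate 3 it was -0.22. In RooKD against scramble it was 0.02 ± 0.21 (edgeR adjusted p = 0.981).

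blanks (FBgn0035608, 3L:5497523-5498958, minus strand) had 8, 2 and 3 reads in 412KD. It had 0, 1 and 6 reads in RooKD and 27, 7 and 6 reads in scramble. The highest library was scramble replicate 1, and the groups overlapped at these few reads. A count of 0 allows up to 3 reads, which is 0.136 CPM in that RooKD library, and covers counting error only. The 6 testis markers found in both tables had a summed level of 0.118 to 3.04 CPM, with 2 to 4 of them at 0 reads in each library. The highest sums, 2.34 and 3.04 CPM, were in 412KD replicate 3 and RooKD replicate 1, the libraries with ovary transcripts. There bam alone had 2.3 and 2.63 CPM, against 0.0509 to 0.236 CPM elsewhere.

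**Figure D2:**
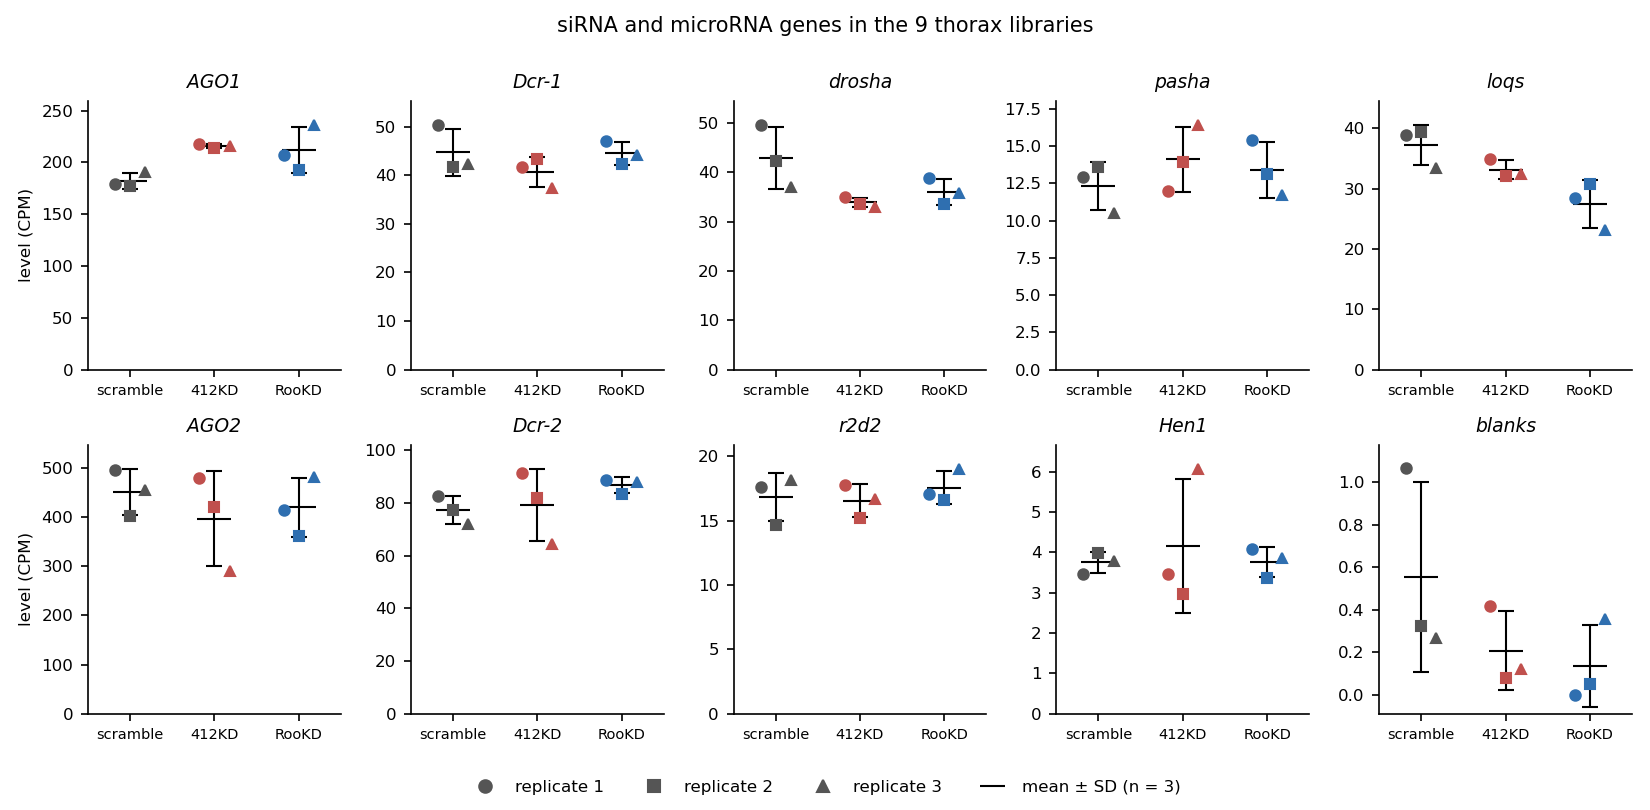
Level of each of the 10 genes in CPM in the 9 libraries, one panel for each gene, with points for the replicates and bars for the mean ± SD of 3. AGO1 in the hairpin groups, at 193 to 236 CPM, lies above scramble at 177 to 191, while AGO2, Dcr-1, pasha, r2d2, Hen1 and blanks overlap between all groups.

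Across the 9 libraries, the coefficient of variation of CPM was 8.08% for r2d2, 8.46% for Dcr-1, 9.61% for AGO1 and 10.6% for Dcr-2. It was 13.7% for pasha, 14.2% for drosha, 15.4% for loqs, 15.5% for AGO2 and 22.6% for Hen1. The median over all 10599 features that passed the filter was 17.5%, with quartiles of 11.8% and 30.0%. Of the 9 testable genes, 8 lay below that median. These features were not matched to the genes in level, and Hen1, above the median, had the lowest level of the 9. The median log2 fold change of the 9 genes was -0.03 in 412KD and 0.02 in RooKD, both against scramble, beside 0.01 and 0.02 for all features. In 412KD against RooKD it was -0.08, beside 0.00. Groups did not overlap for 2 of 9 genes in 412KD against scramble (AGO1 and drosha), beside 17.7% of all features. The count was 3 of 9 in RooKD against scramble (AGO1, Dcr-2 and loqs), beside 18.7%, and 1 of 9 in 412KD against RooKD (loqs), beside 9.09%. The 2 comparisons with scramble share the same control libraries.

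**Figure D3:**
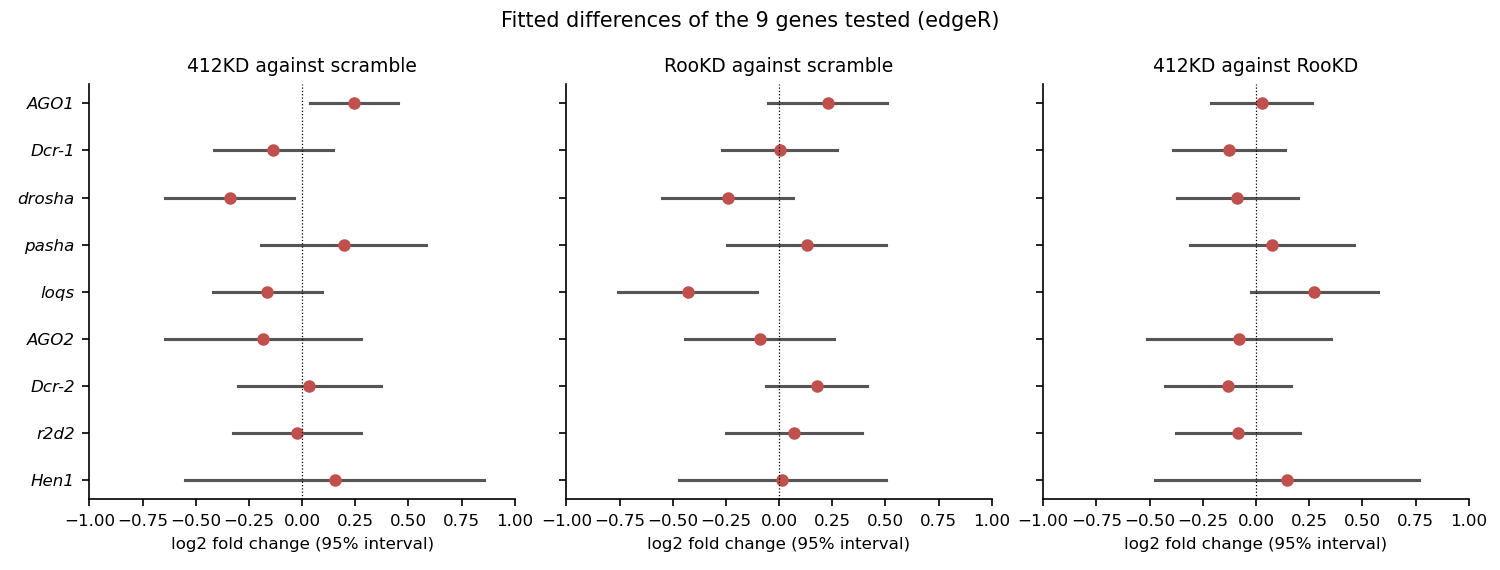
Log2 fold change of the 9 testable genes with its 95% interval from edgeR in the 3 comparisons. Most intervals cross 0, and those of AGO1 and drosha in 412KD against scramble and of loqs in RooKD against scramble do not, with no adjusted p under 0.05.

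Ratios within a library need no scaling between libraries. The ratio of AGO2 to AGO1 in FPKM was 4.39, 3.94 and 2.68 in 412KD, 4.01, 3.74 and 4.08 in RooKD and 5.52, 4.53 and 4.76 in scramble. Both hairpin groups lay below scramble in every library. AGO1, which enters this ratio, was itself apart from scramble in both groups, and both comparisons use the same scramble libraries. The share of other gene pairs whose ratio would separate in this way was not computed. The mean log2 ratio differed from scramble by -0.45 in 412KD and by -0.32 in RooKD (two-sided exact permutation p = 0.1 for each, the smallest that 3 against 3 libraries allow). Without 412KD replicate 3 the first difference was -0.24, with an exact p of 0.2, then the smallest possible for 2 against 3.

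The ratio of Dcr-2 to Dcr-1 was 2.67, 2.30 and 2.10 in 412KD, 2.30, 2.40 and 2.42 in RooKD and 2, 2.26 and 2.08 in scramble. RooKD lay above scramble in every library and 412KD overlapped it. The log2 differences were 0.15 in 412KD (exact permutation p = 0.2) and 0.17 in RooKD (exact permutation p = 0.1). The ratio of r2d2 to loqs, whose isoforms partner with either Dicer, was 0.619, 0.578 and 0.627 in 412KD, 0.731, 0.660 and 1 in RooKD and 0.554, 0.456 and 0.665 in scramble. Both hairpin groups overlapped scramble, with log2 differences of 0.14 and 0.51 (exact permutation p = 0.6 and 0.2). The ratio in RooKD replicate 3 was the highest of the 9, and without it the RooKD difference was 0.33.

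**Figure D4:**
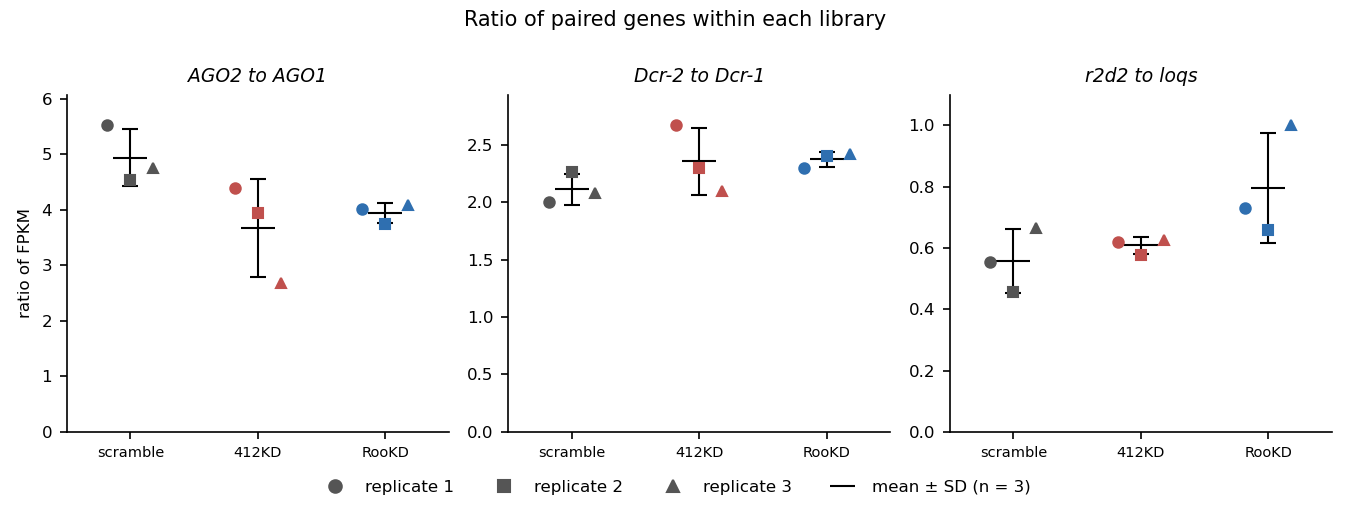
Ratio of FPKM values of AGO2 to AGO1, Dcr-2 to Dcr-1 and r2d2 to loqs within each library, with points for the replicates and bars for the mean ± SD of 3. The AGO2 to AGO1 ratio is 4.53 to 5.52 in scramble and 2.68 to 4.39 in the hairpin groups, without overlap.

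Genes whose pattern over the 9 libraries was most like that of the Argonautes were named by the root mean square difference of centred log2 CPM, among 9006 genes. For AGO1 they were PhKgamma, a phosphorylase kinase subunit, at 0.039, the sarcomere protein gene sls at 0.042 and Pka-R2, a regulatory subunit of protein kinase A, at 0.043, where the median gene was at 0.253. For AGO2 they were CG42709 at 0.074, Plod, a collagen lysyl hydroxylase gene, at 0.074 and CG46339 at 0.087, where the median gene was at 0.317. These are descriptions over the same 9 libraries, in which each library's scaling and tissue content is common to all genes.

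Other genes of the pathway were read from a list of 42, with the microRNA effector complex and its deadenylation and decapping enzymes, RISC cofactors, export and end-processing factors, and the piRNA Argonautes. All 42 passed the filter, and edgeR and DESeq2 each called 0 of them in each comparison. At an unadjusted edgeR p under 0.05, 2 were higher in 412KD against scramble (Fmr1 and vig), beside 5.85% of all features, and 1 was lower (trsn), beside 5.35%. In RooKD against scramble 2 were higher (Tudor-SN and Fmr1), beside 7.45% of all features, and 0 lower, beside 5.22%. In 412KD against RooKD 0 of 42 had such a p, beside 2.81% of all features on the higher and 3.21% on the lower side. Fmr1, vig and Tudor-SN, RISC-associated proteins, were named after their values had been seen. The list's median log2 fold change was 0.07 in 412KD and 0.04 in RooKD against scramble.

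For Fmr1 the log2 fold change was 0.35 ± 0.13 in 412KD (edgeR adjusted p = 0.413) and 0.28 ± 0.12 in RooKD (edgeR adjusted p = 0.39). Without the libraries with ovary transcripts these values were 0.21 and 0.22. For vig in 412KD it was 0.24 ± 0.09 (edgeR adjusted p = 0.414), and for Tudor-SN in RooKD 0.26 ± 0.10 (edgeR adjusted p = 0.37). The lowest of the list in 412KD was trsn, the Translin subunit of the RISC cofactor C3PO, at -0.42 ± 0.15 (edgeR adjusted p = 0.375). It was also the lowest in 412KD against RooKD, at -0.28 ± 0.14. In RooKD against scramble the lowest was DCP1, a decapping cofactor, at -0.28 ± 0.14 (edgeR adjusted p = 0.455), and the highest in 412KD against RooKD was Edc3, an enhancer of decapping, at 0.19 ± 0.21.

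The highest of the list in both comparisons with scramble was piwi, a piRNA Argonaute of the gonad. It had 1.57, 0.746 and 13.2 CPM in 412KD, 12.7, 0.916 and 1.78 CPM in RooKD and 0.829, 1.49 and 0.794 CPM in scramble. The high values were those of 412KD replicate 3 and RooKD replicate 1, the libraries with ovary transcripts. The fitted log2 difference was 2.32 ± 1.08 in 412KD and 2.31 ± 1.0 in RooKD (edgeR adjusted p = 0.485 and 0.414), and 0.14 and 0.38 without these libraries. Without 412KD replicate 1 as well, the 412KD value was -0.46. The germline Argonaute aub, itself one of the 14 ovary markers, had 6.66 and 7.59 CPM in them and 0.707 to 2.41 CPM elsewhere. AGO3, the third of this class, had 22.8 and 21.0 CPM in them and 6.36 to 8.82 CPM elsewhere.

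Transcripts that the machinery processes were also counted. Long hairpin transcripts (hpRNAs) are cut by Dcr-2 into endogenous siRNAs, and 4 of 5 annotated as such stood in both tables. The most abundant was hpRNA:CR18854, the source of esi-1 (2L:9787294-9790745, minus strand), with 411, 479 and 237 CPM in 412KD, 367, 312 and 370.1 CPM in RooKD and 341, 342 and 313 CPM in scramble. The groups overlapped, and the highest and lowest libraries both belonged to 412KD. Against scramble the log2 fold change was 0.18 ± 0.25 in 412KD and 0.09 ± 0.12 in RooKD (edgeR adjusted p = 0.81 and 0.801), and in 412KD it was 0.42 without replicate 3. It shares 39.7% of its exon bases with IP3K1 on the other strand, which had 264 to 422 reads in a library, beside 5875 to 12210 reads for the hairpin transcript.

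hpRNA:CR33940 (3L:19486745-19488439, minus strand) had 10.5, 9.58 and 9.33 CPM in 412KD, 13.0, 10.2 and 8.58 CPM in RooKD and 6.12, 7.01 and 7.19 CPM in scramble. Every library of both hairpin groups lay above every scramble library. Of all features, 17.7% in 412KD and 18.7% in RooKD did not overlap scramble in either direction. Both comparisons use the same scramble libraries. The edgeR log2 fold change was 0.53 ± 0.13 in 412KD, a fold of 1.45 with a 95% interval of 1.16 to 1.80 (edgeR adjusted p = 0.25). In RooKD it was 0.66 ± 0.19, a fold of 1.58 with a 95% interval of 1.16 to 2.14 (edgeR adjusted p = 0.232). DESeq2's adjusted p was 0.112 and 0.105, so neither tool called it. Leaving out single libraries gave log2 fold changes of 0.46 to 0.58 in 412KD and 0.49 to 0.78 in RooKD, with edgeR adjusted p from 0.152 upward. It shares 41.2% of its exon bases with CG32212, which had 0 to 4 reads in a library.

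hpRNA:CR32207 (3L:19477329-19478720, minus strand), which lies near it, had 1.57, 1.06 and 4.44 CPM in 412KD, 4.45, 1.63 and 1.83 CPM in RooKD and 1.5, 1.58 and 1.01 CPM in scramble. It was high in the libraries with ovary transcripts and at 1.01 to 1.83 CPM in the others, with every RooKD library above scramble by at least a narrow margin. In log2 units the difference was 0.79 ± 0.56 in 412KD and 0.96 ± 0.44 in RooKD (edgeR adjusted p = 0.624 and 0.416), and -0.063 and 0.36 without these libraries.

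hpRNA:CR46342, the source of esi-2 (X:4921677-4928133, minus strand), had 6.39, 13.3 and 3.92 CPM in 412KD, 5.59, 3.31 and 2.78 CPM in RooKD and 5.92, 7.43 and 4.01 CPM in scramble. The groups overlapped, with the highest value in 412KD replicate 2. The fitted log2 fold change was 0.45 ± 0.47 in 412KD and -0.56 ± 0.33 in RooKD against scramble (edgeR adjusted p = 0.745 and 0.509), and -0.17 in 412KD without replicate 2. Without RooKD replicate 1 the RooKD value was -0.91. In 412KD against RooKD it was 1.01 ± 0.46 (edgeR adjusted p = 0.854), 0.40 without 412KD replicate 2 and 1.68 without both libraries with ovary transcripts. It shares 22.8% of its exon bases with CG44774 on the same strand, so the reads of these genes cannot be told apart there. CG44774 also had its highest value, 112 CPM, in 412KD replicate 2, against 21.7 to 78.1 CPM elsewhere.

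mus308, a DNA polymerase gene and known target of esi-2, had 12.2, 12.3 and 9.05 CPM in 412KD, 11, 11.7 and 11.3 CPM in RooKD and 11.8, 10.7 and 11 CPM in scramble. The groups overlapped. The 95% interval of its fold against scramble was 0.78 to 1.28 in 412KD and 0.826 to 1.27 in RooKD (edgeR adjusted p = 1 and 0.939).

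Of 40 microRNA precursors in both tables, 8 had a mean of at least 10 reads in a library. The highest was mir-4945 (3R:11442192-11442306, minus strand), within the span of the sarcomere gene sals, with 32, 61 and 60 reads in 412KD. RooKD had 48, 34 and 62 of them, and scramble had 49, 51 and 51. The groups overlapped, and the log2 fold change was -0.01 ± 0.25 for 412KD and 0.22 ± 0.34 for RooKD (edgeR adjusted p = 0.995, then 0.819). Reads on such short precursors in an RNA-seq library of long transcripts do not measure mature microRNAs.

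**Figure D5:**
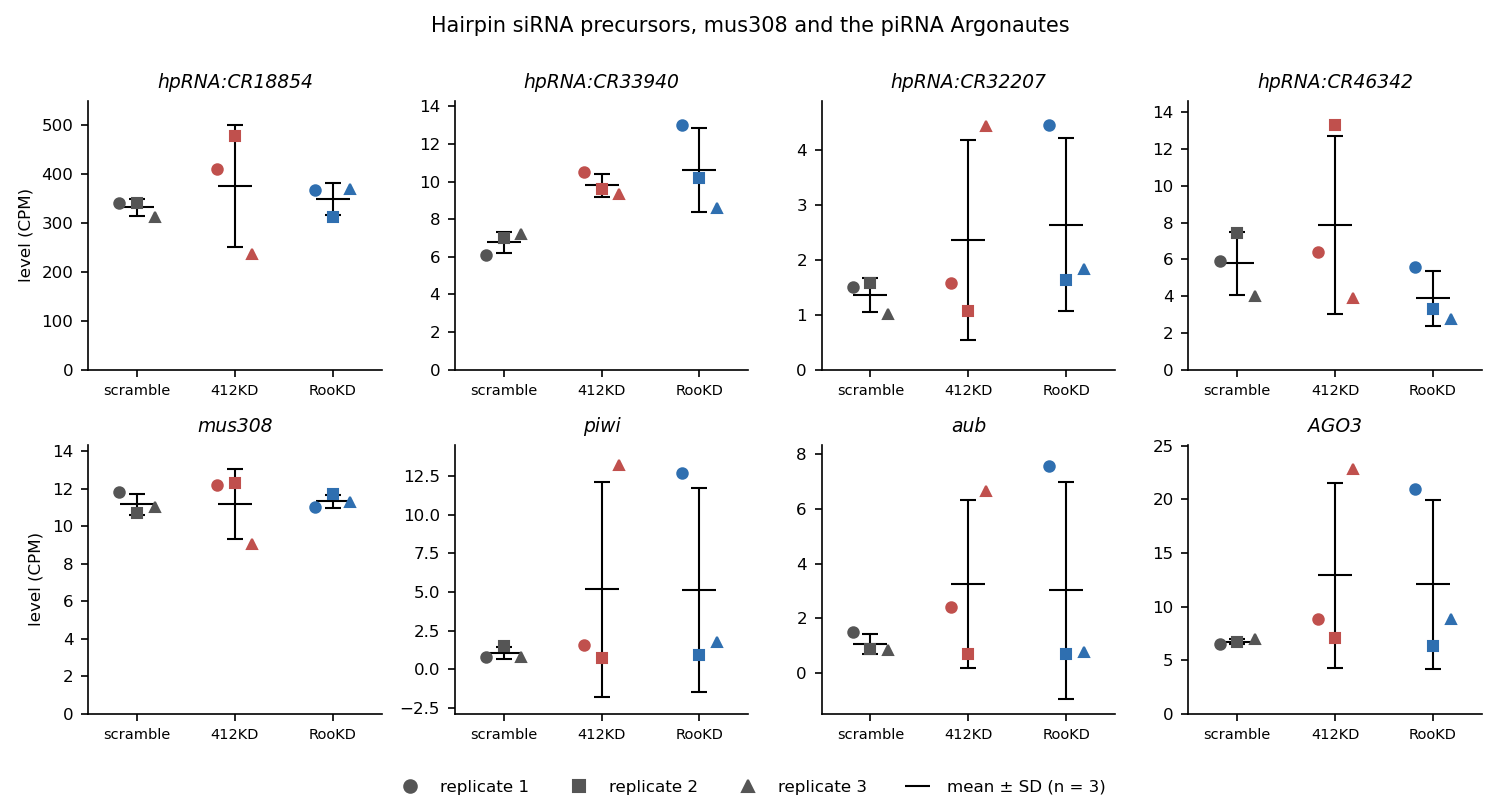
Level in CPM of the hairpin siRNA precursors, the esi-2 target mus308 and piRNA Argonautes in the 9 libraries, with points for the replicates and bars for the mean ± SD of 3. hpRNA:CR33940 is at 8.58 to 13.0 CPM in the hairpin groups and at 6.12 to 7.19 in scramble, and piwi is high in 412KD replicate 3 and RooKD replicate 1, where the wide SD bars of the group reach below 0.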

How the data were processed

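Paired-end RNA-seq was done on 9 libraries of pooled thoraces, with RNA extracted with Trizol. The submitters' processing notes name HISAT2, DESeq2 and the build dm6. How reads were counted, whether by strand and with what rule for several matches, was not stated in any source used here. The authors deposited 1 table for each hairpin, with raw read counts, FPKM, log2 fold changes and adjusted p-values, per the file headers. Both of these last are the authors' own deposited values and entered no test here. Coordinates are those of the deposited tables, with overlaps of exons taken from the reference annotation. 6 low-complexity features, which name no gene, held at most 0.244% of the reads and were left out. 5 gene symbols that read as dates were put back from their FlyBase identifiers.

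Tests on the counts used edgeR 4.0.16 under R 4.3.3 (TMM, filterByExpr, glmQLFit with robust set, glmQLFTest) and a Benjamini-Hochberg adjusted p of 0.05 over all features. Each comparison with scramble used its 6 libraries and 412KD against RooKD all 9. The fit was tested on simulated data. CPM come from TMM library sizes over all 9 libraries. Standard errors are the log2 fold change over the square root of F, and 95% intervals use the t quantile of the fit. Ratios were tested by exact permutation over libraries (SciPy 1.17.1), FPKM being used only for levels and ratios. Alternatives were DESeq2 1.42.0, RLE size factors, no filter, other libraries in the fit, a block for the replicate number, every single library left out, and both libraries with ovary transcripts left out. For the pathway genes, hairpin precursors and mus308 the alternatives were added after seeing the data, as was leaving out 412KD replicate 1 with both libraries with ovary transcripts.

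The 10 genes, the list of 42 and the marker lists were chosen with earlier results of these data known. All 10 are named. From the list, genes that pass the test are named, and otherwise the highest and lowest log2 fold change of each comparison. Precursors are named where their mean is at least 10 reads, at most 5. Likeness to AGO1 and AGO2 was taken over features with a mean of at least 50 normalized counts.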

Additional observations from a re-analysis of the deposited data

How the results depend on the processing

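No gene of the machinery and none of the 42 pathway genes was called under any alternative run, and the lowest adjusted p over the 342 alternative values of the 9 testable genes was 0.175 (loqs in RooKD against scramble, DESeq2). Of these 342 values, 312 kept their direction and 30 changed sign. Against scramble, leaving out both libraries with ovary transcripts is the same fit as leaving out 412KD replicate 3 or RooKD replicate 1. The values of that fit are counted under both settings, here and in the counts below. AGO1 in 412KD against scramble ranged from 0.22 to 0.28, drosha from -0.43 to -0.23 and loqs in RooKD against scramble from -0.52 to -0.33, AGO1 there from 0.14 to 0.28, drosha from -0.33 to -0.14 and AGO2 from -0.21 to -0.001 when single libraries were left out. The 30 changes of sign were as follows. Without both libraries with ovary transcripts, Hen1 was -0.22 in 412KD and -0.046 in RooKD, and Dcr-1 -0.036 in RooKD, against scramble. In 412KD against RooKD, AGO1 was then -0.006, AGO2 0.079 and Hen1 -0.18. Leaving out 412KD replicate 1 as well, added after seeing the data, keeps 1 library of 412KD, assumed to vary like the other groups. Hen1 was then -0.32 in 412KD against scramble and -0.28 in 412KD against RooKD, and AGO1 -0.015 in the latter. Dcr-1 in RooKD was -0.011 with no filter on low counts and -0.008 with all 9 libraries in the fit. Leaving out single libraries, the values against scramble in 412KD ran from -0.080 to 0.16 for Dcr-2, from -0.11 to 0.035 for r2d2 and from -0.22 to 0.35 for Hen1. In RooKD they ran from -0.055 to 0.082 for Dcr-1, from -0.051 to 0.085 for Hen1 and from -0.028 to 0.14 for r2d2. In 412KD against RooKD they ran from -0.036 to 0.11 for AGO1, from -0.24 to 0.094 for AGO2, from -0.050 to 0.19 for pasha and from -0.23 to 0.34 for Hen1. Causes were not tested.

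Of 289 alternative values of other named genes and precursors, 18 changed sign and none passed. mus308 in 412KD was 0.001 with RLE size factors and 0.13 without the libraries with ovary transcripts, where hpRNA:CR32207 was -0.063. Without 412KD replicate 1 as well, 412KD against scramble gave mus308 0.14, mir-4945 0.14, hpRNA:CR32207 -0.35 and piwi -0.46. Without single libraries, 412KD against scramble ran from -0.075 to 0.13 for mus308, from -0.063 to 1.15 for hpRNA:CR32207, from -0.092 to 0.14 for mir-4945, from -0.035 to 0.42 for hpRNA:CR18854 and from -0.17 to 0.78 for hpRNA:CR46342. RooKD against scramble ran from -0.15 to 0.43 for mir-4945 and from -0.007 to 0.058 for mus308, and 412KD against RooKD from -0.034 to 0.35 for Edc3.

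The AGO2 to AGO1 difference stayed below 0 without any single library, from -0.60 to -0.24 in 412KD and from -0.38 to -0.24 in RooKD. FPKM and read counts give the same ratio differences by construction.

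The count of all features called, 2, 11 and 10 in 412KD against scramble, RooKD against scramble and 412KD against RooKD, did depend on the settings. DESeq2 gave 337, 346 and 81, and leaving out both libraries with ovary transcripts gave 105, 44 and 70. Without 412KD replicate 1 as well, 412KD against scramble gave 26 and 412KD against RooKD 19. With no filter on low counts the first comparison gave 15 and the second 26, with all 9 libraries the first gave 14, and with the 6 hairpin libraries only the third gave 4. Without single libraries the ranges were 0 to 105, 0 to 44 and 2 to 22. With the replicate number as a block the counts were 0, 10 and 4. Same-numbered libraries do not deviate together throughout, with correlations of their deviations of 0.0856 to 0.119 between 412KD and scramble, -0.0291 to 0.238 between RooKD and scramble and -0.210 to 0.393 between 412KD and RooKD. Differently numbered libraries had correlations of -0.108 to 0.0334 between 412KD and scramble, below every same-numbered value there. They had -0.252 to 0.212 between RooKD and scramble and -0.498 to 0.367 between 412KD and RooKD. The labels do not say that the numbers pair libraries, and these values do not settle it. Hen1 had 65 to 150 reads a library and blanks 0 to 27. At this depth, and with the spread between 3 libraries in each group, small differences of these genes were not detectable.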
